A study of Mus musculus with 6 samples.

Results

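The SOCS (suppressor of cytokine signalling) family of feedback inhibitors was examined in fibroblasts sorted from mouse synovium, the lining tissue of joints, after a systemic challenge with immune complexes (IC). Its 8 members, Socs1 to Socs7 and Cish, were taken by symbol from a table of 24348 genes. The mice were adult wild-type C57BL/6 animals in both groups. The 3 IC libraries came from mice given ovalbumin bound by rabbit polyclonal anti-OVA antibody intravenously, and the 3 control libraries came from mice labelled vehicle. Whole synovium was digested with collagenase before the sort, and the comparison bears on whether fibroblasts respond, downstream of macrophages, to circulating IC. The sort gate and the time between injection and dissection are not given in the sources used here, and the labels do not state how many mice went into a library. P-values therefore measure the spread between these libraries, which may be technical.

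SOCS proteins close a negative feedback loop on cytokine receptors. A cytokine activates JAK kinases on its receptor, the kinases activate STAT transcription factors, and STATs switch on SOCS genes, whose products bind the receptor or the kinase and stop the signal. Each member carries an SH2 domain, which recognises phosphorylated tyrosines, and a SOCS box, which recruits a ubiquitin ligase built on elongins and a cullin. SOCS1 and SOCS3 can also block JAK activity directly. SOCS3 acts mainly on receptors that signal through gp130, such as the IL-6 receptor, and SOCS1 mainly on interferon receptors. CIS, encoded by Cish, and SOCS2 restrain growth hormone, prolactin and other STAT5 signals, whereas SOCS4 to SOCS7 are linked mainly to growth factor and insulin signalling. In synovial fibroblasts, IL-6 family cytokines are known drivers of inflammatory gene expression.

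Promoter windows were searched for the letters of a STAT element and of an interferon element. RefSeq promoter windows on GRCm38.p6 were matched for 4 of the 8 members, Socs1, Socs3, Socs4 and Cish, and were read over 250 bases before and 30 bases from the transcript start. The STAT element searched was TTCNNNGAA, which reads the same on both strands, and the interferon element searched was GAAANNGAAA on either strand. The sequences of the 3 windows with a match follow, 5′ to 3′ on the strand of the gene, with the matches in capitals.
Socs3: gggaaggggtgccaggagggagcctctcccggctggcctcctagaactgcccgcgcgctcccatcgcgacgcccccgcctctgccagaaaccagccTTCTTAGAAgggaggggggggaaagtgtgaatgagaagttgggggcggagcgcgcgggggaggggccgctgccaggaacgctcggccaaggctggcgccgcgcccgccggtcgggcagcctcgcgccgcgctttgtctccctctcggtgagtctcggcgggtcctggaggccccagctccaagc
Cish: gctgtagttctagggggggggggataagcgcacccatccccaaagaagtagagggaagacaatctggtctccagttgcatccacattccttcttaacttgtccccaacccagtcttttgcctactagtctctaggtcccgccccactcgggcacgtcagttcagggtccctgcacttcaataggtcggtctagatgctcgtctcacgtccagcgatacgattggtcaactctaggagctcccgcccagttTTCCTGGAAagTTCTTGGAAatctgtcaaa
Socs1: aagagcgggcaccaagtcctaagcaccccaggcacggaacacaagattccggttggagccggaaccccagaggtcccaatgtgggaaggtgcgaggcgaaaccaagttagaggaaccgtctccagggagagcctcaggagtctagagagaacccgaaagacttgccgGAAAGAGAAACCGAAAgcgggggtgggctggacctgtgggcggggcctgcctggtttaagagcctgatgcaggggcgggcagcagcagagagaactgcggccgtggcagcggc

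The Socs3 window (chr11:117969337-117969616, minus strand) held 1 STAT element at positions -154 to -146, counted from 1 at the transcript start. The Cish window (chr9:107296409-107296688, plus strand) held 2 STAT elements, at positions 1 to 9 and 12 to 20. The Socs1 window (chr16:10785507-10785786, minus strand) held 2 interferon elements that overlap each other, at positions -83 to -74 and -77 to -68. The Socs4 window (chr14:47276670-47276949, plus strand) held neither set of letters. The Socs3 and Cish windows lie inside the GENCODE M21 bounds of their genes (11:117966079-117970047 and 9:107296026-107302784). Their positions therefore hold only for the RefSeq start used here. Among all 32851 windows of this length, 7.83% held the STAT element and 3.28% held the interferon element. No binding was measured in this experiment.

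All 8 members passed the filter of at least 10 counts in at least 3 libraries, and the lowest value of any member in any library was 663.1 normalized counts, which are counts divided by the library's size factor. Together the members held 0.147% to 0.152% of all counts in the IC libraries and 0.127% to 0.137% in the vehicle libraries. These ranges did not overlap, and most of the counts were those of Socs3. Total counts ranged from 40114331 to 56714304 per library.

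Levels were set beside each other per exon length, in TPM, a scale on which counts are divided by length and then by the library's sum, with the union of each gene's GENCODE M21 exons on GRCm38. Socs3 was the most abundant member, at a mean level of 1567 TPM over the 6 libraries (range 1394 to 1718). It ranked 47 among 19638 tested genes with a length and made up 82.0% to 84.9% of the family's summed TPM in each library. Socs1 followed at 184 TPM (170 to 208), or 9.74% of the family on average. The other 6 members lay far below. Socs7 had a mean of 33.8 TPM (31.2 to 36.7), Socs4 32.04 TPM (28.8 to 34.3), Socs5 28.5 TPM (25.1 to 31.6) and Cish 24.3 TPM (15.0 to 31.4). Socs6, at 9.97 TPM (8.91 to 10.7), and Socs2, at 9.16 TPM (6.16 to 14.1), were the lowest.

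In this order, the ranges of Socs3 and Socs1, of Socs1 and Socs7, and of Cish and Socs6 were apart, whereas the other neighbours overlapped. The family thus fell into Socs3, Socs1, a group of 4 genes whose neighbouring ranges overlapped, and a low pair. The last 2 sets depended on the length used. With the longest transcript as the length, Socs2 spanned 10.9 to 25.1 TPM and overlapped Cish (16.2 to 33.9) and Socs4 (22.7 to 27.3), so the gap above the low pair was lost. On that length, Socs5 ranked 3, Socs7 4, Cish 5, Socs4 6, Socs2 7 and Socs6 8. Socs2 has 14 annotated transcripts, whose exons together cover 9531 bases, against 4242 bases for the longest of them. For scale on the same TPM axis, with genes chosen after their values were seen, Il6st, which encodes gp130 itself, had a mean level of 398 TPM, Stat3 215 TPM and Jak1 262 TPM.

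**Figure D1:**
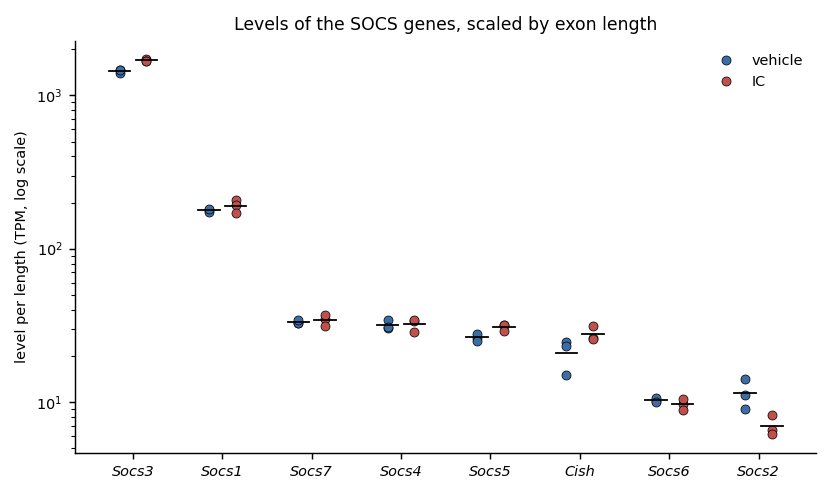
Level of each SOCS gene per exon length (TPM, log axis) in the 3 vehicle and 3 IC libraries, with points for libraries and lines for group means, ordered by the mean over all 6. Socs3, between 1394 and 1718 TPM, lies above Socs1, between 170 and 208 TPM, and no other member exceeds 36.7 TPM.

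After IC, Socs3 was higher and Socs2 lower, and the other 6 members did not pass the test. With DESeq2, 2 of 8 members had an adjusted p under 0.05 (called), against 2.10% of the 19925 genes tested. The IC and vehicle values did not overlap for 4 of the 8 members, with Socs3, Socs5 and Cish higher and Socs2 lower, against 15.8% of all tested genes in either direction. The median log2 fold change of the 8 members was 0.05, and that of all tested genes was -0.0019. As the members were chosen with earlier results of these data known, these shares are descriptive. The edgeR quasi-likelihood test and limma-voom each called 0 of the 8 members, and edgeR called 37 genes in all. At an unadjusted p under 0.05, edgeR listed 1920 of all genes and 4 of the members, Socs2, Socs3, Socs5 and Cish.

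**Figure D2:**
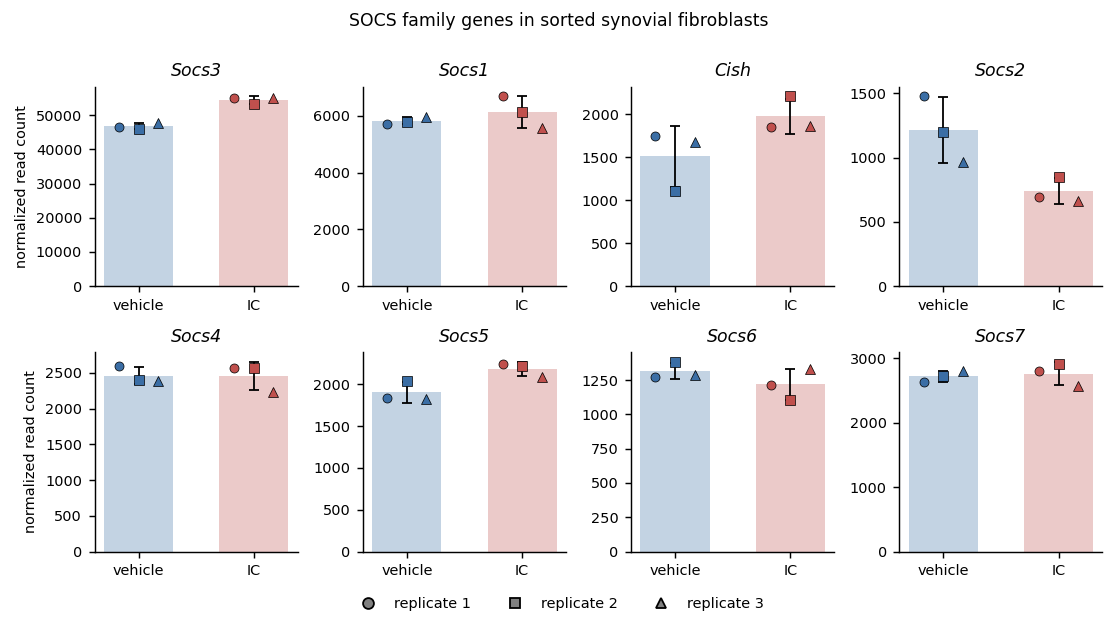
Normalized read counts of the 8 SOCS genes, with bars for group means, error bars for SD over 3 libraries and a marker shape for each replicate number. Every IC library lies above every vehicle library for Socs3, Socs5 and Cish and below it for Socs2, whereas the groups overlap for Socs1, Socs4, Socs6 and Socs7.

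Socs3 (11:117966079-117970047, minus strand) encodes the main brake on gp130 receptors. Its normalized counts were 55021, 53165 and 55069 in IC replicates 1 to 3 and 46527, 45995 and 47746 in vehicle replicates 1 to 3. The 2 groups were tight, with coefficients of variation of 2.00% and 1.92%, and every IC library lay above every vehicle library. Group means were 54418 ± 1086 with IC and 46756 ± 898 with vehicle (SD, n = 3 each), a rise of 16.4%. The log2 fold change was 0.22 (SE 0.064, 95% interval 0.09 to 0.34), with a DESeq2 adjusted p of 0.0305. The edgeR adjusted p was 0.267. The DESeq2 call was lost without IC replicate 1 (adjusted p = 0.108), IC replicate 3 (0.0644) or vehicle replicate 2 (0.0824), while the log2 fold change stayed between 0.21 and 0.24 in all 6 leave-one-out fits. It was also lost with 1 surrogate variable (adjusted p = 0.0758).

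The genes most like Socs3 over the 6 libraries, by Pearson correlation of log2(normalized count + 1) among 13434 genes with a mean of at least 100, were Klhl29 (r = 0.992), Mfsd7a (r = 0.990) and Nr4a1 (r = 0.989). The 6 points of each correlation fall into the treatment groups, so r is given as a description of likeness. Nr4a1, an immediate early transcription factor, had a log2 fold change of 0.27 with a DESeq2 adjusted p of 0.00637. Klhl29 stood at 0.34 (adjusted p = 0.0109) and Mfsd7a at 0.74 (adjusted p = 1.19e-06) in the same DESeq2 fit. The summed level of 14 immediate early and stress genes, which are also induced by tissue dissociation, was higher in every IC library, at 29459 to 29772 CPM (counts scaled to the library total) against 26730 to 28046 CPM in the vehicle libraries. Of these 14 genes, 10 had a log2 fold change above 0 and 4 below, with a median of 0.10. DESeq2 called 3 higher, Fosb, Ier3 and Nr4a1, and 0 lower, beside 2.10% of all tested genes. Fosb had the largest values, at 7053 to 7620 CPM after IC and 5996 to 6132 CPM after vehicle. Hspa1a went the other way, at 82.1 to 99.4 CPM against 101 to 111 CPM. The part of these 14 genes in the difference of Socs3 was not tested.

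Socs1 (16:10782240-10785536, minus strand) encodes the main brake on interferon receptors. It had 6685, 6127 and 5568 normalized counts after IC and 5713, 5799 and 5960 after vehicle. IC replicate 3 was the lowest of all 6 libraries and IC replicate 1 the highest, so the groups overlapped. The means were 6127 ± 559 and 5824 ± 126 (SD, n = 3 each). The log2 fold change was 0.07 (95% interval -0.10 to 0.25), with a DESeq2 adjusted p of 0.883. The interval runs from 0.932 to 1.19 times the vehicle level. Within each library, the ratio of Socs1 to Socs3 counts was 0.122, 0.115 and 0.101 after IC and 0.123, 0.126 and 0.125 after vehicle. This ratio was chosen after its values were seen, and it was lower in every IC library, though IC replicate 1 lay close to the vehicle range. As Socs3 was higher in every IC library, the ratio is not a separate result.

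Socs2 (10:95385362-95417180, minus strand) encodes a regulator of growth hormone signalling and was the member with the largest fold change. Its normalized counts were 695.3, 851.7 and 663.1 in IC replicates 1 to 3 and 1475, 1201 and 965.4 in vehicle replicates 1 to 3. The vehicle libraries spread more widely than the IC libraries, yet the lowest of them lay above the highest IC library. Group means were 736.7 ± 101 with IC and 1214 ± 255 with vehicle (SD, n = 3 each). Socs2 fell by 0.72 on the log2 scale (SE 0.171, 95% interval -1.06 to -0.39), which is 0.606 times the vehicle level (interval 0.480 to 0.765). The DESeq2 adjusted p was 0.00248, and 1.07% of all tested genes were called lower. The edgeR adjusted p was 0.108. The DESeq2 call was lost without IC replicate 1 (adjusted p = 0.0521) or IC replicate 3 (0.0538), and the log2 fold change ranged from -0.86 to -0.56 over the 6 leave-one-out fits.

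Several marker lists of cells other than fibroblasts moved in the same direction as Socs2, as did most fibroblast markers. Of the 10 fibroblast markers 8 had a log2 fold change below 0, with a median of -0.16, though their sums overlapped between the groups. Myogenic progenitor markers summed to 16.7 to 42.5 CPM after IC and 61.2 to 118 CPM after vehicle, with 2 of 6 markers called lower, Myf5 and Megf10. Endothelial markers summed to 201 to 266 CPM against 271 to 317 CPM, with 3 of 8 called lower, Cdh5, Kdr and Cldn5. Mural markers summed to 397 to 496 CPM against 500 to 544 CPM, with 1 of 6 called lower, Myh11. These calls stand beside 1.07% of all tested genes called lower. Tek, the largest endothelial marker, overlapped between the groups (120 to 139 CPM after IC, 135 to 141 CPM after vehicle). Of the largest mural markers, Cspg4 overlapped (164 to 193 CPM against 165 to 170 CPM) and Notch3 was lower (198 to 228 CPM against 236 to 272 CPM). In bulk RNA, fewer cells of a type and less RNA per cell cannot be told apart. The part of these cells in the difference of Socs2 was not tested. The genes most like Socs2 over the 6 libraries were Ube3a (r = 0.992), Chp2 (r = 0.982) and Aasdhppt (r = 0.982), and none of these 3 was called by DESeq2 (adjusted p = 0.357 to 0.542).

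Cish (9:107296026-107302784, plus strand), a STAT5 target whose product competes for STAT5 docking sites, had values of the opposite order to Socs2. Its normalized counts were 1846, 2205 and 1867 after IC and 1743, 1100 and 1680 after vehicle. Every IC library was above every vehicle library, but the gap between 1846 and 1743 was small, and vehicle replicate 2 lay well below the other vehicle libraries. The means were 1972 ± 201 and 1508 ± 354 (SD, n = 3 each), with a log2 fold change of 0.39 (SE 0.159, 95% interval 0.08 to 0.70). The DESeq2 adjusted p was 0.235, so Cish did not pass the test, and without vehicle replicate 2 the log2 fold change was 0.21. Cish is the only member whose exons share bases with other annotated genes, on the opposite strand: 261 bases with Gm17040 and 479 with Gm17041. These had at most 44.8 and 3.78 normalized counts in any library, and the use of strand in counting is not stated.

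As both genes respond to STAT5, the ratio of Socs2 to Cish counts was calculated within each library, a measure chosen after the values were seen. It was 0.377, 0.386 and 0.355 in IC replicates 1 to 3 and 0.846, 1.09 and 0.575 in vehicle replicates 1 to 3. The 3 IC libraries lay within a narrow band (0.373 ± 0.016, SD), and the 3 vehicle libraries were all above it and spread widely (0.837 ± 0.258, SD). As Socs2 was lower and Cish higher in every IC library, the ratio had to lie apart, so it adds no separate result.

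Socs5 (17:87107679-87137839, plus strand), whose product promotes degradation of the EGF receptor, had 2247, 2215 and 2089 normalized counts after IC and 1840, 2042 and 1826 after vehicle. The groups did not overlap, although IC replicate 3 and vehicle replicate 2 lay close together. The log2 fold change was 0.20 (SE 0.102, 95% interval -0.0026 to 0.40), and the DESeq2 adjusted p of 0.450 did not pass. Socs4 (14:47276931-47296102, plus strand), its closest relative in the family, had 2568, 2574 and 2232 normalized counts after IC and 2596, 2396 and 2393 after vehicle. Its groups overlapped, with a log2 fold change of -0.0031 (95% interval -0.20 to 0.20) and a DESeq2 adjusted p of 0.998. For Socs4 the interval runs from 0.868 to 1.15 times the vehicle level.

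Socs6 (18:88665224-88927481, minus strand), linked to receptor tyrosine kinases such as KIT, had 1215, 1105 and 1333 normalized counts after IC and 1275, 1382 and 1285 after vehicle. Socs7 (11:97362551-97398542, plus strand), linked to insulin signalling, had 2804, 2914 and 2561 after IC and 2628, 2729 and 2803 after vehicle. The groups overlapped for both genes. The log2 fold changes were -0.11 (95% interval -0.35 to 0.13) for Socs6 and 0.02 (-0.17 to 0.21) for Socs7, with DESeq2 adjusted p of 0.871 and 0.981. The sign for Socs4 and Socs7 turned when single libraries were left out, and their values stayed between -0.04 and 0.07.

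**Figure D3:**
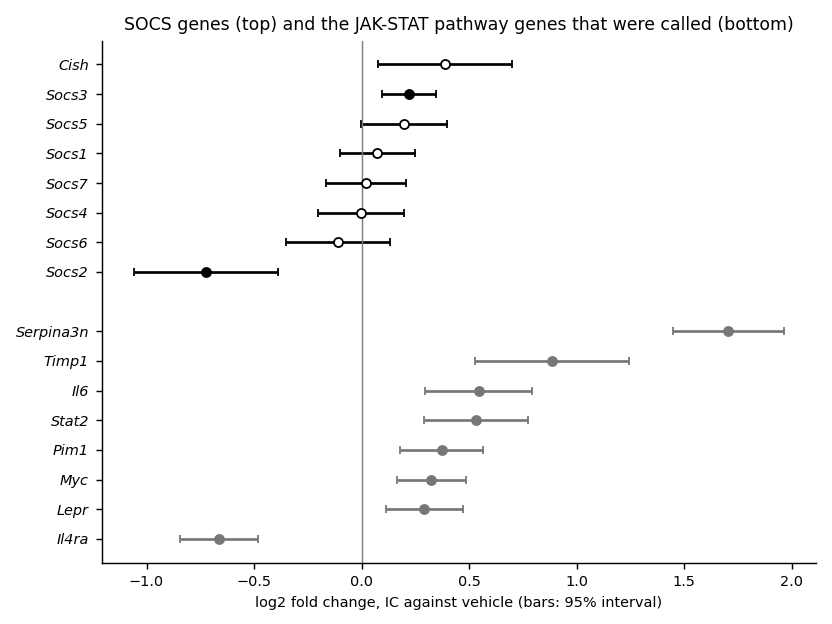
Log2 fold change of IC against vehicle with 95% intervals for the 8 SOCS genes (black, filled where DESeq2 called the gene) and for the 8 called genes of the JAK-STAT lists (grey). Socs3 at 0.22 and Socs2 at -0.72 are filled, and Cish at 0.39 and Socs5 at 0.20 are open.

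Genes of the pathway that the SOCS proteins regulate were described by lists of 99 genes in all, of which 96 were tested. DESeq2 called 7 higher and 1 lower, or 8.33% of the 96, beside 2.10% of all tested genes. The median log2 fold change of the 96 was 0.05. As the lists were chosen with earlier results of these data known, these shares are descriptive. The edgeR test called 2 of them, Serpina3n and Il4ra. Leaving out single libraries changed the number of calls in these lists and among all tested genes. With all libraries, DESeq2 called 8 of the 96 and 419 genes in all. Without vehicle replicate 2 it called 4 of the 96 (282 in all), and without vehicle replicate 3 it called 5 (291 in all). Without vehicle replicate 1 it called 12 (671 in all). Without any single IC library it called 7 (284 to 382 in all). Stat4, Cntf and Csf3r were listed but did not enter the test.

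Among the cytokines that act through gp130, 1 of 7 tested genes was called, Il6, beside 2.10% of all tested genes. The normalized counts of Il6 were 9669, 8776 and 12711 after IC and 8101, 6311 and 6940 after vehicle, all IC libraries being higher. The log2 fold change was 0.55 (SE 0.127), with a DESeq2 adjusted p of 0.00183 and an edgeR adjusted p of 0.152. The DESeq2 call was lost without IC replicate 3 (adjusted p = 0.0613), vehicle replicate 2 (0.0741) or vehicle replicate 3 (0.0854). The median log2 fold change of the 7 cytokine genes was -0.21.

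Of the 21 tested receptors on which SOCS proteins act, 1 was called higher and 1 lower, beside 2.10% of all tested genes. Their median log2 fold change was 0.01. Il4ra, the shared chain of the IL-4 and IL-13 receptors, had 25895, 20700 and 24246 normalized counts after IC and 35133, 40230 and 36741 after vehicle. It fell by 0.66 on the log2 scale (SE 0.092), with a DESeq2 adjusted p of 9.4e-10 and an edgeR adjusted p of 0.0227, and it was called in all 6 leave-one-out fits. Its mean level was 454 TPM. Lepr, the leptin receptor, to which SOCS3 binds, had a log2 fold change of 0.29 (SE 0.091, DESeq2 adjusted p = 0.0496) and was called in 0 of 6 leave-one-out fits, with adjusted p from 0.0556 to 0.219.

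In the signalling core, calls are again read beside the 2.10% of all tested genes. Of the 4 JAK kinases 0 were called, with a median of 0.10 and the smallest p for Jak3 (log2 fold change 0.32, DESeq2 adjusted p = 0.323). Of 6 tested STAT factors 1 was called, with a median of 0.07. Stat2, which acts downstream of type I interferon receptors, had 7418, 6651 and 9854 normalized counts in the IC libraries and 5695, 5064 and 5784 in the vehicle libraries. Its log2 fold change was 0.53 (SE 0.124, DESeq2 adjusted p = 0.00197, edgeR adjusted p = 0.137), and the DESeq2 call was lost without vehicle replicate 2 (adjusted p = 0.0658). Without IC replicate 3, the highest of the 6, the log2 fold change was 0.35 (adjusted p = 0.0286).

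At 2.10%, a list of 9 to 11 genes would often hold no call, so the counts of the next 3 lists are near the background. Of the 9 ubiquitin ligase partners 0 were called, with a median of 0.04 and the smallest p for Ube2f, the NEDD8-conjugating enzyme of cullin 5 (0.23, DESeq2 adjusted p = 0.475). Of the 9 other SOCS box proteins 0 were called, with a median of 0.04 and the smallest p for Spsb4 (0.38, DESeq2 adjusted p = 0.603). Of 11 other brakes on JAK-STAT signalling, such as phosphatases and PIAS proteins, 0 were called, with a median of 0.02. Among these, Usp18, an inhibitor of the type I interferon receptor, had the smallest p (0.62, DESeq2 adjusted p = 0.710), and its IC values of 892.6, 738.0 and 1814 normalized counts overlapped the vehicle range of 541.2 to 919.2.

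Known target genes of the STATs were described in lists by factor. Of the 13 STAT3 target genes 4 were called higher and 0 lower, beside 2.10% of all tested genes. The median log2 fold change was 0.30, and 12 of 13 had a value above 0, compared with 9881 of 19925 tested genes. The exception, named after its value was seen, was Bcl6 (-0.34, DESeq2 adjusted p = 0.0766). This list was chosen with earlier results of these data known, so its counts and median are descriptive and are no test of STAT3 activity. Serpina3n, a secreted serine protease inhibitor, had 15817, 20470 and 25045 normalized counts after IC and 5642, 7054 and 6106 after vehicle. Its log2 fold change of 1.71 (SE 0.132) had a DESeq2 adjusted p of 4.2e-34 and an edgeR adjusted p of 0.00401. Timp1, an inhibitor of matrix metalloproteinases, rose by 0.89 (SE 0.184, DESeq2 adjusted p = 0.000272, edgeR adjusted p = 0.0836). Both were called in all 6 leave-one-out fits.

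The other called STAT3 targets were Pim1, a kinase gene that also stands in the STAT5 list, and the transcription factor gene Myc. Pim1 had a log2 fold change of 0.37 (SE 0.098, DESeq2 adjusted p = 0.0103, edgeR adjusted p = 0.178), and its call held in 2 of 6 leave-one-out fits. It was lost without IC replicate 2 (adjusted p = 0.0643), IC replicate 3 (0.107), vehicle replicate 2 (0.126) or vehicle replicate 3 (0.104). Myc had a log2 fold change of 0.32 (SE 0.082, DESeq2 adjusted p = 0.00591, edgeR adjusted p = 0.135), and its call was lost without vehicle replicate 3 (adjusted p = 0.0927). Of the 4 growth hormone and STAT5 targets, 1 was called, Pim1, beside 2.10% of all tested genes. The log2 fold change was above 0 for 1 of the 4 and below 0 for 3, with a median of -0.28. Bcl6 also stands in both lists, and so few genes do not measure STAT5 activity. Over the 8 alternatives that kept all libraries, Serpina3n and Il4ra were called in 8, Stat2, Il6, Myc and Timp1 in 6, Pim1 in 5 and Lepr in 4, and edgeR gave the largest adjusted p of these for each of the 8 genes.

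**Figure D4:**
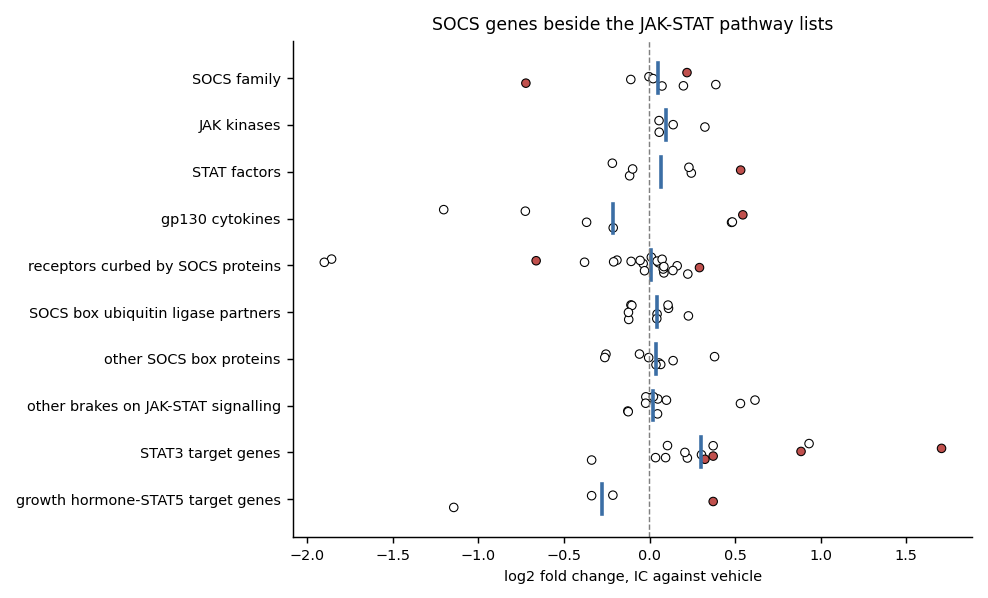
Log2 fold change (IC against vehicle) of each tested gene in the SOCS family and in 9 JAK-STAT lists, with red points for genes called by DESeq2 and a blue bar at each list's median. The median is 0.30 for STAT3 target genes and 0.05 for the SOCS family. Members and lists were chosen with earlier results of these data known.

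The fibroblast label was checked against markers. All 10 fibroblast markers were in the table and summed to 44794 to 46476 CPM after IC and 45680 to 55522 CPM after vehicle. Of these 10, 3 were called, Prg4 higher and Col3a1 and Lum lower, beside 2.10% of all tested genes. Macrophage markers summed to 33.7 to 52.1 CPM after IC and 42.1 to 53.8 CPM after vehicle over the 7 of 10 markers in the table. Neutrophil markers (3 of 7 in the table) stayed at or under 0.851 CPM and the lymphocyte list (1 of 6) at or under 2.93 CPM in every library. Skeletal muscle markers summed to 14.9 to 29.7 CPM against 25.4 to 69.5 CPM, Schwann cell markers to 49.3 to 124 CPM against 102 to 149 CPM, and adipocyte markers to 1.48 to 3.11 CPM against 1.76 to 3.77 CPM, all with overlap between IC and vehicle. Of these, Myh1, Myl1 and Ngfr were called lower, beside 1.07% of all tested genes. Markers outside the table were not analysed here.

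How firmly each SOCS call stood can be read from the adjusted p under each setting. For Socs2 it ranged from 0.000431 to 0.108, and it was under 0.05 in 10 of 14 alternatives. For Socs3 it ranged from 0.0190 to 0.267 and was under 0.05 in 7 of 14. For Cish it lay between 0.0917 and 0.751 and passed in 0 of 14. The alternatives reuse the same libraries, so these tallies are not independent support. The edgeR test and limma-voom, which replace DESeq2, called none of these genes. The direction of these 3 genes was the same in every one of these fits. As their IC and vehicle values did not overlap, refitting the same libraries could hardly change that direction, so its constancy adds no support.

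**Figure D5:**
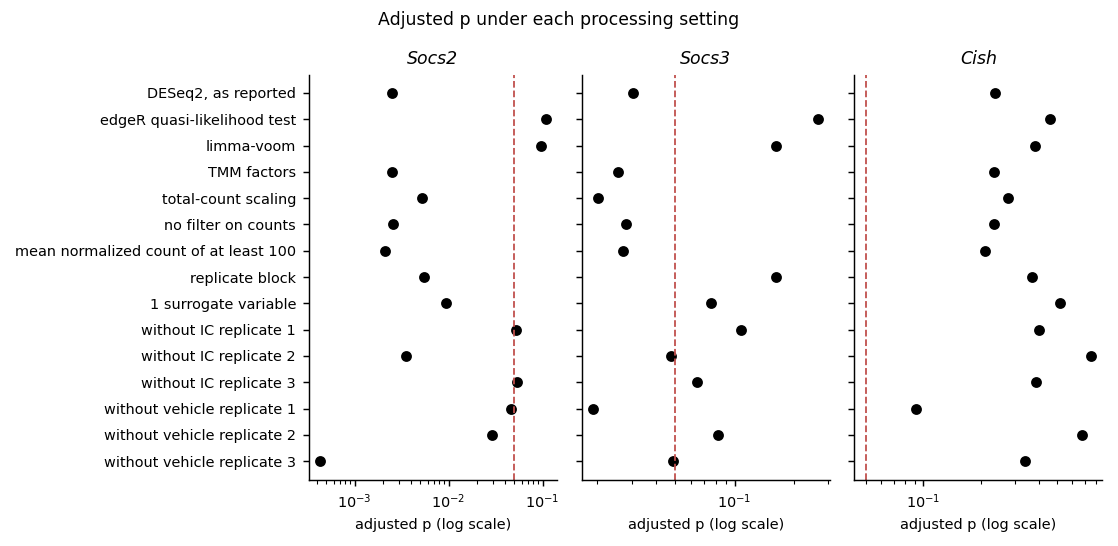
DESeq2, edgeR or limma-voom adjusted p (log axis) of Socs2, Socs3 and Cish under the reported setting and 14 alternatives, with a dashed line at 0.05. Socs2 lies left of the line except with edgeR, limma-voom and without IC replicate 1 or 3, Socs3 lies right of it in 7 settings, and Cish never lies left of it.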

How the data were processed

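Total RNA from sorted synovial fibroblasts was sequenced in 3 IC and 3 vehicle libraries. Raw counts, 1 whole number per gene and library, were deposited. Per the labels and the study's methods, the authors trimmed reads with Trim Galore, checked them with FastQC, aligned them to mm10 with HISAT2 and counted them with featureCounts. Versions, annotation and strand setting are not given in the sources used here, and labels and methods name different library kits. The methods name batch removal with sva without its settings.

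A gene entered the test when 3 or more libraries had 10 or more counts (19925 of 24348). IC was compared with vehicle with DESeq2 (version 1.42.0, Wald test, default settings), treatment being the only term, and a call required an adjusted p (Benjamini-Hochberg, over all tested genes) under 0.05. DESeq2 called 205 genes higher and 214 lower and gave no adjusted p to 3870 genes. Log2 fold changes are unshrunken. TPM used exon unions of GENCODE M21, and CPM used total counts.

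The alternatives were edgeR (version 4.0.16), limma-voom (limma version 3.58.1), scaling by TMM or by total counts, testing without a filter or only genes whose normalized counts average 100 or more, a block for the replicate number, sva (version 3.50.0) with 1 surrogate variable, leaving out single libraries with the tested genes kept, and other length scales. Scripts were tested on simulated data. R was version 4.3.3. Members and lists were chosen with earlier results of these data known. A further pathway list counts in the pathway totals but is not reported here. The genes named were all members, in each list those called or else the smallest p, and the 3 genes most like each called member. Other names are given as chosen after their values were seen or belong to marker lists.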

Additional observations from a re-analysis of the deposited data

How the results depend on the processing

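Over the 8 members and 14 alternatives each (112 values), 96 kept their direction and their side of the threshold, 11 kept direction but lost the call and 5 changed sign. Socs1, Socs5, Socs6 and Cish kept their sign and stayed uncalled in every alternative. Their sizes moved, and Cish ran from 0.21 to 0.50 over the leave-one-out fits. The edgeR test called 37 genes in all (12 higher, 25 lower), 0 members and 2 pathway genes, and limma-voom called 62 (25 higher, 37 lower), 0 members and 2 pathway genes, against 419 (205 higher, 214 lower), 2 and 8 with DESeq2. For Socs2 these tests gave a log2 fold change of -0.72 (adjusted p = 0.108) and -0.74 (0.0957), and for Socs3 0.22 (0.267) and 0.22 (0.163). The replicate block left 1 member called and gave Socs3 0.22 (adjusted p = 0.162), and 1 surrogate variable left 1 member called and gave Socs3 0.21 (0.0758). With the block, 320 genes were called in all. Whether the shared replicate numbers mark a pairing is not known. Deviations from the group means had correlations of -0.166, -0.155 and -0.00823 between libraries of the same number, over 15131 genes. Between libraries of different numbers they ran from -0.107 to 0.248. With 3 libraries per group these values cannot decide whether libraries were paired. Leaving out libraries gave 282 to 671 genes in all (671 without vehicle replicate 1, with 326 of the 419 shared), 0 to 2 members (0 without IC replicate 1 or IC replicate 3) and 4 to 12 pathway genes. It gave -0.86 to -0.56 for Socs2, 0.21 to 0.24 for Socs3, a log2 fold change of -0.0383 to 0.0627 for Socs4 and of -0.0205 to 0.0733 for Socs7. Socs4 changed sign with total-count scaling (0.0019) and without IC replicate 3 (0.0627) or vehicle replicate 1 (0.0359), and Socs7 without IC replicate 2 (-0.0205) or vehicle replicate 1 (-0.0045). With the longest transcript as the length, Socs5 ranked 3, Socs7 4, Cish 5, Socs4 6, Socs2 7 and Socs6 8. The cause of these changes was not tested. With DESeq2, log2 fold changes of 0.39 (Cish, SE 0.159) and 0.20 (Socs5, SE 0.102) did not pass the test, whereas 0.22 (Socs3, SE 0.064) did.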
